A study of Homo sapiens with 8 samples.

Results

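The long noncoding RNAs KCNQ1OT1, NORAD, TUG1, GAS5 and SNHG1 were examined for contact with the polypyrimidine tract binding protein (PTB). The 5 loci were fixed by their hg19 coordinates and strand, and a peak was a member when it overlapped a locus by at least 1 nt on the strand of the transcript. This rule kept 215 of 266317 deposited peaks. They were 47 of 118434 PTB UVC peaks, 116 of 83725 PTB UVA peaks, 37 of 58213 published iCLIP peaks, 3 of 3809 peaks of PTB without UV and 12 of 2136 YFP peaks. KCNQ1OT1 spans chr11:2629558-2721228 (minus strand), NORAD chr20:34633544-34638882 (minus), TUG1 chr22:31365634-31375381 (plus), GAS5 chr1:173833038-173837125 (minus) and SNHG1 chr11:62619460-62623386 (minus).

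The study captured Halo-tagged protein on beads with its RNA, without a gel step, and sequenced the crosslinked fragments (GoldCLIP). All cells of the series samples were 293T, a line derived from human embryonic kidney, and were grown with puromycin. The groups were cells with a Halo-PTB transgene crosslinked with UVC light, cells with that transgene crosslinked with UVA light, cells with that transgene and no UV, and cells with a Halo-YFP transgene (yellow fluorescent protein, the protein control) crosslinked with UVC. Each group has 2 samples but 1 peak list, so no value below has a spread between replicates and no difference between lists was tested. The fifth list holds PTB peaks that the submitters derived again from an earlier, gel-based iCLIP study. It belongs to no sample of this series, so the cell line named above does not cover it. The sources used here do not give the promoter of the transgenes, the light doses, any photoactivatable nucleoside or whether a line is 1 clone. Counts carry exact Poisson 95% intervals and shares carry exact Clopper-Pearson 95% intervals. Both intervals hold the error of counting and no other, and take each peak as separate, which touching and nested peaks are not.

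PTB is a nuclear and cytoplasmic protein that binds pyrimidine-rich RNA and is best known as a repressor of alternative exons. The 5 RNAs differ in what they are known for. KCNQ1OT1 is transcribed from an imprinted region within KCNQ1, a potassium channel gene on the opposite strand, and stays in the nucleus, where it silences neighbouring genes in cis. NORAD is an abundant cytoplasmic RNA that binds Pumilio proteins. TUG1 is a conserved RNA found in nucleus and cytoplasm. GAS5 and SNHG1 are spliced host genes whose introns hold small nucleolar RNAs (snoRNAs), mainly of the box C/D class that guides methylation of ribosomal RNA. In the RefSeq table of GRCh38.p14, 11 snoRNA genes lie between the ends of GAS5 and 9 between those of SNHG1, and none within the other members. That table was used for names and neighbours only, since its build differs from that of the peaks. It lists TUG1 as protein_coding, and the other members as lncRNA. No hg19 sequence was used here, so the bases under the peaks are not shown.

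Every peak found in these loci lay on the strand of the transcript. In the KCNQ1OT1 interval, where KCNQ1 is read on the plus strand, the 5 lists together held 42 peaks on the minus strand and 0 on the plus strand. A count of 0 among 42 allows a plus-strand share of up to 7.14%, and the exact interval reaches 8.41%. The other members also had 0 peaks on the opposite strand, so the count was 0 beside 215 peaks in all. Peaks of a single strand were usual in these lists. Among 16310 windows of 5 kb with at least 5 peaks from all lists, 94% had their peaks on 1 strand, so strand purity does not set the 5 loci apart.

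All 5 members held peaks in the PTB UVC, PTB UVA and iCLIP lists. For comparison, 4.32% of the 5 kb windows of 1 strand held a UVC peak, 2.87% a UVA peak and 2.32% an iCLIP peak, windows without genes included. KCNQ1OT1 (91.7 kb) and TUG1 (9.75 kb) are longer than a window, so these shares understate how often stretches of their length hold a peak. GAS5 and SNHG1 held control peaks, and KCNQ1OT1, NORAD and TUG1 held none in either control. The list without UV met 0.183% of windows and the YFP list 0.0826%. UVA gave the most peaks in each member. KCNQ1OT1 had 3 UVC, 28 UVA and 11 iCLIP peaks. NORAD had 7 UVC, 15 UVA and 5 iCLIP peaks. TUG1 had 14 UVC, 27 UVA and 6 iCLIP peaks. GAS5 had 14 UVC, 19 UVA and 6 iCLIP peaks, and 2 without UV. SNHG1 had 9 UVC, 27 UVA and 9 iCLIP peaks, 1 without UV and 12 with YFP.

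The balance of UVA and UVC ran against that of the whole lists. Of the UVA and UVC peaks of a member summed, UVA supplied 90.3% in KCNQ1OT1 (interval 74.2 to 97.96), 75% in SNHG1 (57.8 to 87.9), 68.2% in NORAD (45.1 to 86.1), 65.9% in TUG1 (49.4 to 79.9) and 57.6% in GAS5 (39.2 to 74.5). Over the whole lists UVA supplied 41.4%. The intervals of KCNQ1OT1, SNHG1, NORAD and TUG1 lie above that value, and that of GAS5 holds it. Counted on merged sites, UVA supplied 90% in KCNQ1OT1, 72.2% in NORAD, 66.7% in TUG1, 63.2% in GAS5 and 61.1% in SNHG1. SNHG1, with 11 UVA and 7 UVC sites, was then the lowest, and no interval was computed for these site shares. The whole lists held 70110 UVA and 80531 UVC sites. With peaks at or above each list's median score, UVA supplied 47.8% of 23 peaks in GAS5, a value inside its interval. UVA no longer outnumbered UVC there, as in the whole lists, which held 41979 UVA and 60239 UVC peaks at this setting. Together the members had 116 UVA and 47 UVC peaks, a ratio of 2.47 where the whole lists gave 0.707. More UVA than UVC peaks was nevertheless common among bound windows. Of the 10846 windows of 5 kb on 1 strand with at least 5 such peaks, 50% had more UVA than UVC peaks, and counted on merged sites 65% of 6479 windows did. Depth is unknown for both lists, so its part in these ratios was not tested.

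Per length, the 4 shorter RNAs carried far more sites than KCNQ1OT1. Peaks within 20 nt of each other on a strand were merged into sites, because many touched or were nested. UVA sites per kb numbered 2.94 in GAS5, 2.80 in SNHG1, 2.43 in NORAD, 2.05 in TUG1 and 0.295 in KCNQ1OT1. Over the 45.8 kb nearest the 5′ end, which hold all KCNQ1OT1 peaks, its UVA density was 0.589 sites per kb. The Poisson intervals of the first 4 overlap one another, so their order is not settled, while KCNQ1OT1 as a whole lies below all of them. UVC sites per kb were 1.78 in SNHG1, 1.71 in GAS5, 1.03 in TUG1, 0.937 in NORAD and 0.0327 in KCNQ1OT1. UVA peaks covered 21.5% of the SNHG1 locus, 16.3% of GAS5, 13.97% of NORAD and 11.5% of TUG1, against 1.51% of KCNQ1OT1. These densities depend on how much of each RNA the cells held, which the lists do not measure.

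**Figure D1:**
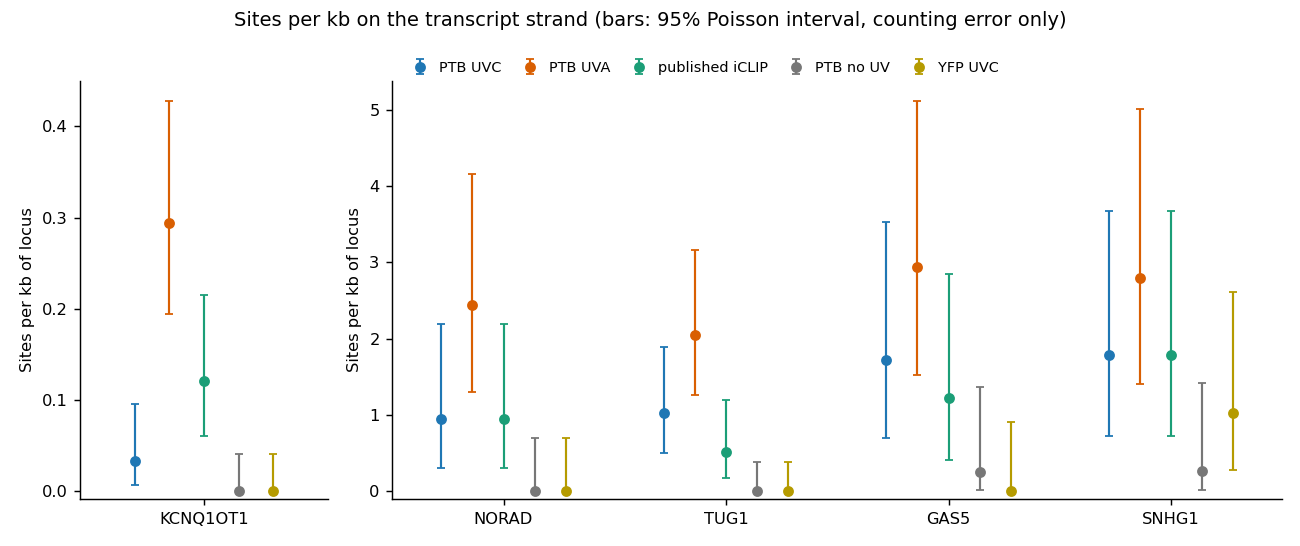
Merged sites per kb of locus (vertical axis, with a separate scale for KCNQ1OT1) for each member and list, with exact Poisson 95% intervals that cover counting error only. UVA is highest in every member, from 0.295 sites per kb in KCNQ1OT1 to 2.94 in GAS5, and control sites appear in GAS5 and SNHG1.

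The peaks of KCNQ1OT1 lay along the part of the locus nearest its 5′ end, and its distal part held no peak in any list. The 28 UVA peaks ran from 0.359 to 45.4 kb from the 5′ end and the 11 iCLIP peaks from 0.377 to 45.4 kb, while the locus is 91.7 kb long. The 3 UVC peaks lay between 22.6 and 37.0 kb. By 10 kb steps from the 5′ end, UVA peaks numbered 9, 6, 10, 2 and 1. The iCLIP peaks numbered 7, 2, 1, 0 and 1, so most of them lay in the first 10 kb. The UVC peaks fell in the third step (2) and the fourth (1). From 50 kb onward the count was 0 in all 5 lists. The lists do not measure how much RNA the cells held from each part of the locus, so its role here was not tested.

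The highest-scoring part of KCNQ1OT1 was a single region of 305 nt, chr11:2715948-2716252, which starts 4976 nt from the 5′ end. UVA had 3 peaks there, with scores of 396, 280 and 96, and iCLIP had 1 peak of 247 nt with a score of 533. The score is the authors' own value for a peak, close to 10 times the negative log10 of its p-value and limited to 1000, and ranks peaks within a list. No UVC or control peak lay in this region. Over all 28 UVA peaks of KCNQ1OT1 the median score was 24.5, against 92 for the whole UVA list. The 2 UVA peaks that reached 100, where 47.6% of the list did, both lay in this region.

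Positions of KCNQ1OT1 recurred between lists about as often as in the lists as a whole. Where sites of the 3 PTB lists overlapped they were joined into regions, and KCNQ1OT1 had 36, of which 4 (11.1%) were found in 2 lists and 0 in all 3. Over the whole lists 11.3% of 177629 regions were found in at least 2. UVA and iCLIP also met at chr11:2720801-2720869, 359 nt from the 5′ end (scores 32 and 30), and at chr11:2692378-2692435 (scores 45 and 35). UVA and UVC met at chr11:2698596-2698670, where the UVC peak had a score of 24, the highest of the 3 UVC peaks. The remaining UVC peaks both scored 17. A score of 17 was at the middle of the UVC list, and no UVC peak lay where UVA and iCLIP scored highest.

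**Figure D2:**
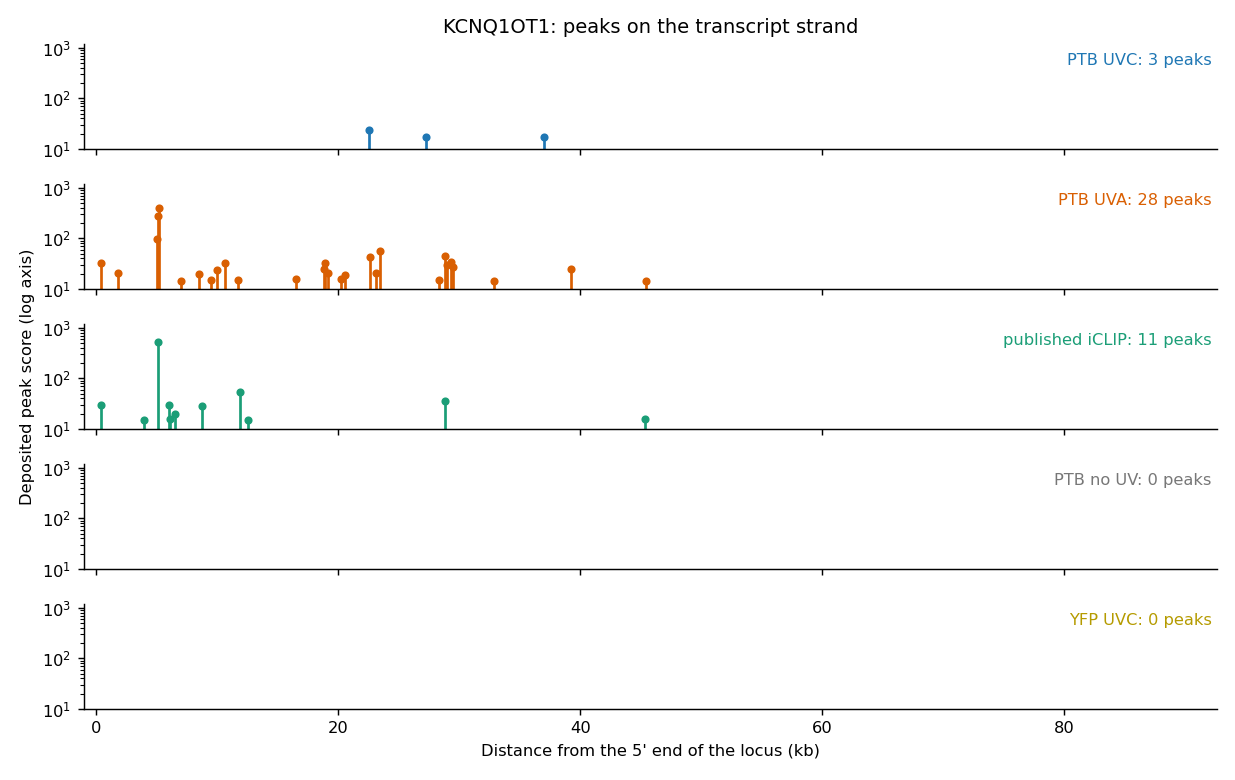
Peaks of KCNQ1OT1 by distance of their middle from the 5′ end of the locus (horizontal axis, kb) and deposited score (vertical log axis), 1 row per list. UVA and iCLIP share a high region about 5 kb from the 5′ end with scores of 396 and 533, and no list has a peak beyond 45.4 kb.

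TUG1 had 1 dominant PTB region, shared by the 3 PTB lists. The region chr22:31367762-31368087, 326 nt long and 2128 nt from the 5′ end, held 6 UVA, 2 UVC and 2 iCLIP peaks. Its UVA peaks included all 4 TUG1 peaks at the score limit of 1000, and the widest of these, chr22:31367793-31367875, had 83 nt. The iCLIP peaks there scored 395 and 420, the highest of the iCLIP peaks in TUG1. The UVC peaks there scored 18 and 16, close to the list's median of 19. The same stretch was thus at the top of the UVA range and near the middle of the UVC list.

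Further positions in TUG1 were shared by pairs of lists. UVA and iCLIP met at chr22:31372971-31373085 (scores 717 and 83) and at chr22:31370593-31370658 (262 and 47). UVA and UVC met at chr22:31372079-31372189 (254 and 25). The highest UVC score in TUG1, 29, was shared by a pair of peaks, and the wider of them, chr22:31373949-31374004, met no other list. UVA peaks of TUG1 were strong as a group: 23 of 27 scored at least 100, where 47.6% of the whole UVA list did. Their median was 194, against 92 for that list. Of the 29 regions, 4 (13.8%) were found in at least 2 lists, near the 11.3% of the whole lists.

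NORAD had peaks along most of its length and a shared site at its 3′ end. The site chr20:34633549-34633647, starting 5235 nt from the 5′ end of a 5.34 kb locus, was the only NORAD region found in all 3 PTB lists, with scores of 59 (UVC), 272 (UVA) and 15 (iCLIP). UVA and UVC also met at chr20:34636177-34636263, where UVC had its highest NORAD scores, 80 and 86. UVA and iCLIP met at chr20:34637579-34637626 (53 and 20). The highest UVA peak, chr20:34636684-34636736 with a score of 346, was overlapped by neither other PTB list. A UVC peak with a score of 14, chr20:34636740-34636760, lay within 20 nt of it. The iCLIP peaks of NORAD were weak, with scores of 13 to 20 against a list median of 47. In contrast, 5 of 7 UVC peaks were above the UVC median. The widest merged sites were found in 1 list each: chr20:34637932-34638043 in UVA (112 nt) and chr20:34635134-34635241 in UVC (108 nt).

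In the snoRNA host genes a larger share of regions was found in several PTB lists. In GAS5 the sites of the PTB lists formed 15 regions, of which 7 (46.7%) were found in at least 2 lists and 2 in all 3. In SNHG1 they formed 12 regions, of which 7 (58.3%) were found in at least 2 lists and 4 in all 3. The count was 3 of 19 (15.8%) in NORAD. Among all regions of the whole lists, 11.3% of 177629 were found in at least 2 lists. No whole-list share was computed for regions found in all 3. With sites within 50 nt of each other joined, regions in at least 2 lists numbered 5 in NORAD, 7 in GAS5 and 6 in SNHG1. The total of regions and a whole-list share were not computed at that setting. Of the 15 GAS5 and 12 SNHG1 regions, 1 and 4 lay on a control peak. Those in SNHG1 include chr11:62620382-62620507 and chr11:62622486-62622523, each found in all 3 PTB lists. Shares without these regions were not computed. GAS5 and SNHG1 were also the members with nested peaks: a peak lay inside a wider one of the same list in 5 of 19 UVA peaks of GAS5 and 8 of 27 of SNHG1, and in 0 UVA peaks of the other members. Over the whole UVA list 1.99% of peaks were nested in this way.

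GAS5 had its best-supported region near the 3′ end. The region chr1:173833482-173833587 held 4 UVC, 2 UVA and 1 iCLIP peak, with highest scores of 163, 310 and 42, of which the first and last were the highest of their lists in GAS5. The region chr1:173834490-173834571 held 2 peaks from each PTB list, with highest scores of 54, 165 and 34. The highest UVA peak, chr1:173833286-173833362 with a score of 806, met an iCLIP peak with a score of 16 and no UVC peak. No control peak lay in these 3 regions. The 2 peaks without UV, with scores of 22 and 13, lay one inside the other at chr1:173835802-173835852. At this position UVC had 3 peaks (scores 58, 20 and 46) and UVA had 2 (166 and 51), while YFP and iCLIP had none.

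SNHG1 was the member most marked by the protein control. The 12 YFP peaks formed 4 sites, at chr11:62620382-62620484, chr11:62620801-62620868, chr11:62621134-62621206 and chr11:62622487-62622557. Their scores were 13 to 30, and 8 of 12 were above the YFP list's median of 17. The peak without UV, chr11:62620819-62620867 with a score of 23, lay on the second of these sites, where UVA had peaks and UVC and iCLIP had none. Of the 12 YFP peaks, 11 overlapped a UVA peak, 6 a UVC peak and 2 an iCLIP peak, whereas over the whole YFP list 21.3%, 25.1% and 9.22% did. All 3 peaks without UV in GAS5 and SNHG1 overlapped a UVA peak, 2 a UVC peak and 0 an iCLIP peak, against 12.6%, 15.8% and 6.17% of that list. These are counts from 1 or 2 loci.

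PTB peaks of SNHG1 therefore fall into those on and off control sites. On a control peak lay 4 of 9 UVC, 9 of 27 UVA and 3 of 9 iCLIP peaks, and in GAS5 3 of 14, 2 of 19 and 0 of 6. Over the whole lists the shares were 1.01% (UVC), 1.04% (UVA) and 0.601% (iCLIP). The highest UVC peak of SNHG1, chr11:62620418-62620495 with a score of 415, lay on a YFP peak. It stood above 99.6% of the UVC list or level with it, while the UVA and iCLIP peaks of this region reached 136 and 19. The region chr11:62622486-62622523, also on a YFP site, was found in the 3 PTB lists with scores of 15 (UVC), 173 (UVA) and 53 (iCLIP). Away from the controls, UVA had a run of 6 touching peaks over 331 nt, chr11:62619476-62619806, near the 3′ end. That run included both SNHG1 peaks at the score limit, the wider being chr11:62619620-62619667. UVC had 3 peaks (highest score 53) and iCLIP 1 (30) in the same region. The region chr11:62622762-62622848 was also free of control peaks and was shared by the 3 PTB lists, with scores of 20, 449 and 63, the last being the highest iCLIP score in SNHG1. Whether peaks of GAS5 and SNHG1 lie on the snoRNAs was not tested, since the snoRNA positions held here are of another build.

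**Figure D3:**
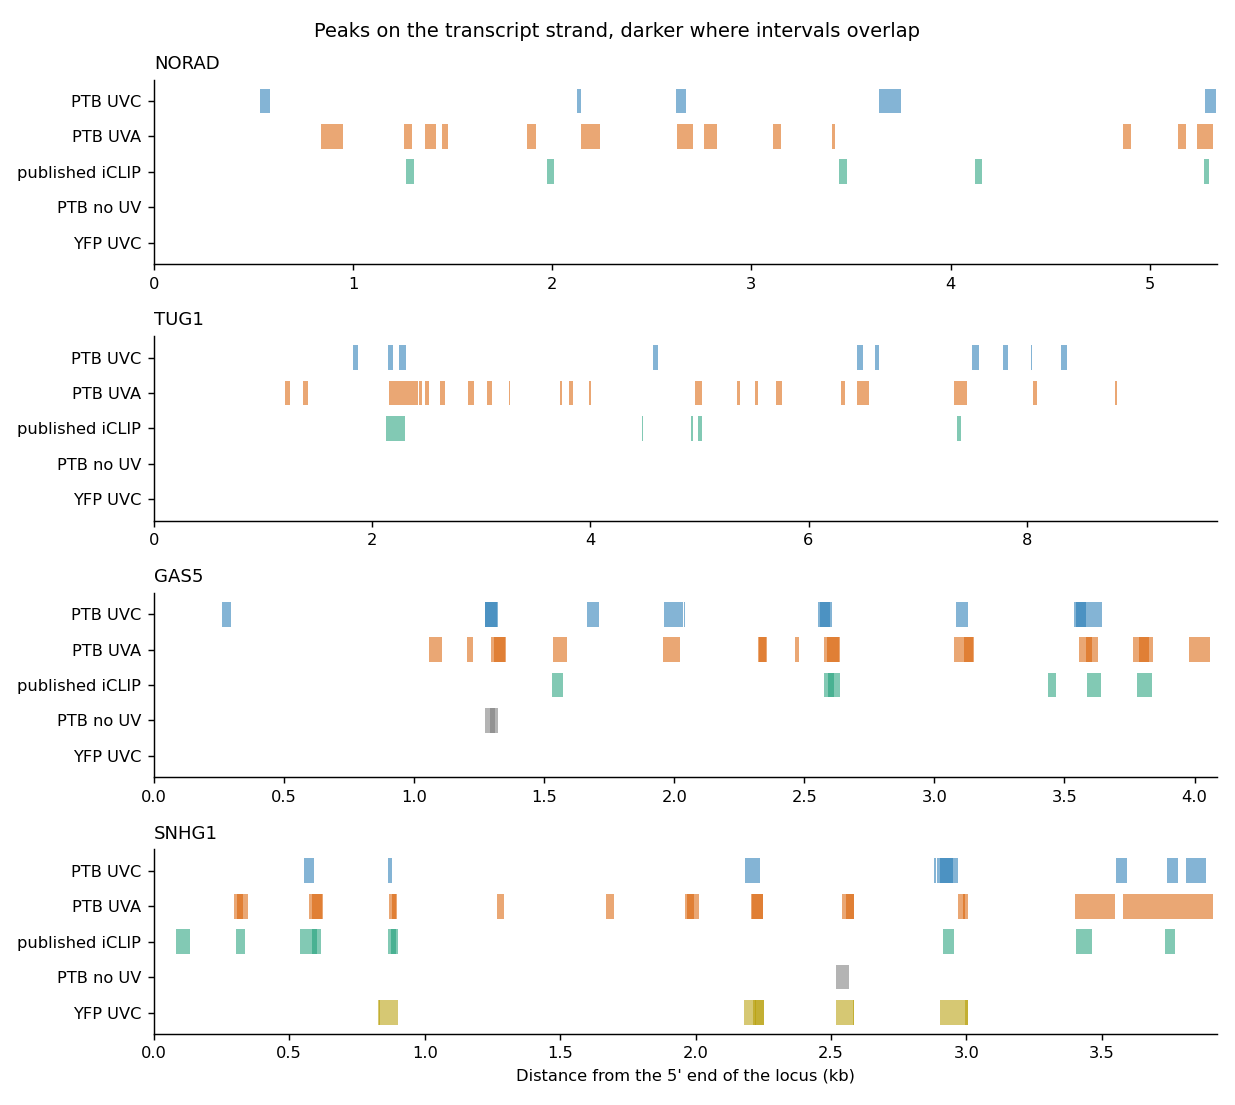
Peaks of NORAD, TUG1, GAS5 and SNHG1 by distance from the 5′ end of each locus (horizontal axes, kb), 1 row per list, with darker colour where peaks of a list overlap and peaks narrower than 6 nt drawn 6 nt wide. The 4 YFP sites of SNHG1 and the site without UV of GAS5 line up with PTB peaks, and the control rows of NORAD and TUG1 are empty.

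The lists were next compared position by position over the 5 members. A UVA peak was met by 24 of the 47 UVC peaks (51.1%, interval 36.1 to 65.9), where 9.61% of all UVC peaks met one, and an iCLIP peak by 12 (25.5%, 13.9 to 40.3), where 5.45% did. Of the 116 UVA peaks, 29 (25%, 17.4 to 33.9) overlapped a UVC peak, against 13.6%, and 28 (24.1%, 16.7 to 33.0) an iCLIP peak, against 20.4%. Of the 37 iCLIP peaks, 12 (32.4%, 18.0 to 49.8) overlapped a UVC peak, against 9.59%, and 21 (56.8%, 39.5 to 72.9) a UVA peak, against 25.9%. The share of UVA peaks met by iCLIP was near its background, and the other 5 shares were above it. With at least 50% of the peak covered, the share of UVA peaks met by UVC was 12.1%, against 8.60% of the whole list. At this setting UVC met by UVA was 40.4% (whole list 6.74%), UVC met by iCLIP 23.4% (3.77%) and UVA met by iCLIP 20.7% (14.5%). Of the iCLIP peaks, 18.9% were met by UVC (5.48%) and 56.8% by UVA (18.8%). With peaks at or above the medians, the share of UVC peaks met by iCLIP was 3.13%, against 5.82%, so it no longer lay above the background. At the same setting UVA met by iCLIP was 14.5% against 22.5%, and iCLIP met by UVC was 12.5% of 8 peaks against 10.8%. UVC met by UVA was 53.1% against 10.3%, UVA met by UVC 29.0% against 16.4%, and iCLIP met by UVA 87.5% of 8 peaks against 26.7%. With peaks on a control peak left out, 47.5% of 40 UVC peaks still overlapped a UVA peak. The other shares were then 22.5% (UVC in iCLIP), 21.0% (UVA in UVC), 24.8% (UVA in iCLIP), 26.5% (iCLIP in UVC) and 55.9% (iCLIP in UVA). Counted on merged sites, UVA met by UVC was 18.1% of 83 sites, UVA met by iCLIP 21.7% and iCLIP met by UVC 24.2%. UVC met by UVA was 56.25%, UVC met by iCLIP 28.1% and iCLIP met by UVA 51.5%. Whole-list shares were not computed for these settings.

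The members contributed unequally to this sharing. Of the UVC peaks, 10 of 14 in GAS5 and 7 of 9 in SNHG1 overlapped a UVA peak, against 3 of 7 in NORAD, 3 of 14 in TUG1 and 1 of 3 in KCNQ1OT1. In the other direction 10 of 19 UVA peaks in GAS5 and 12 of 27 in SNHG1 met a UVC peak. The counts were 4 of 27 in TUG1, 2 of 15 in NORAD and 1 of 28 in KCNQ1OT1, close to or below the 13.6% of the whole list. The iCLIP peaks met a UVA peak in 5 of 6 cases in GAS5, 7 of 9 in SNHG1, 4 of 6 in TUG1, 2 of 5 in NORAD and 3 of 11 in KCNQ1OT1. UVA, UVC and iCLIP peaks also each covered a larger percent of the 2 host genes than of the other members, and the part of this coverage in the sharing was not tested.

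**Figure D4:**
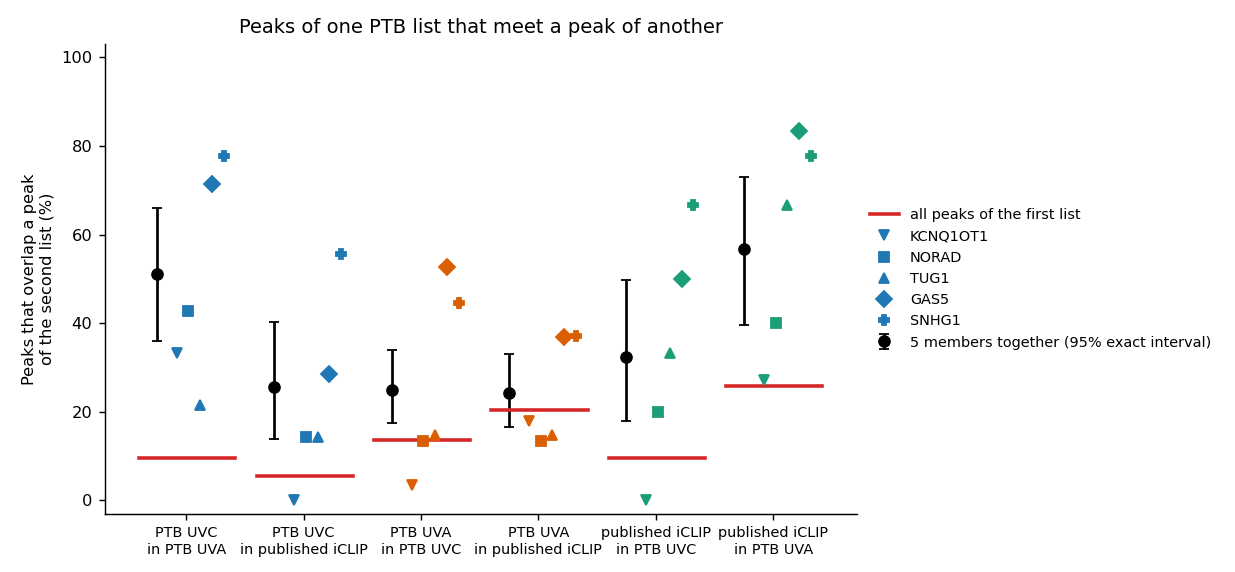
Percent of peaks of 1 PTB list that overlap a peak of another by at least 1 nt on the same strand (vertical axis), for each ordered pair of lists. Black points are the 5 members together with exact 95% intervals, coloured symbols are single members and red lines are all peaks of the first list; GAS5 and SNHG1 lie highest in every pair, and KCNQ1OT1 has 0 of 3 UVC peaks in iCLIP and 0 of 11 iCLIP peaks in UVC.

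Score ranges separated the members differently in each list. Of the UVA peaks, 67 of 116 scored at least 100: 23 of 27 in TUG1, 22 of 27 in SNHG1, 9 of 15 in NORAD, 11 of 19 in GAS5 and 2 of 28 in KCNQ1OT1. The background was 47.6%, so TUG1 and SNHG1 held mostly high-scoring UVA peaks and KCNQ1OT1 mostly low ones. Of the UVC peaks 3 of 47 reached 100 (2 in GAS5 and 1 in SNHG1), where 1.95% of the list did, and of the iCLIP peaks 3 of 37 (2 in TUG1 and 1 in KCNQ1OT1), where 24.3% did. Above the median of the UVC list were 12 of 14 UVC peaks in GAS5, 7 of 9 in SNHG1, 5 of 7 in NORAD, 6 of 14 in TUG1 and 1 of 3 in KCNQ1OT1. In iCLIP the members' peaks were mostly below the list's median of 47, with 7 of 37 above it.

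**Figure D5:**
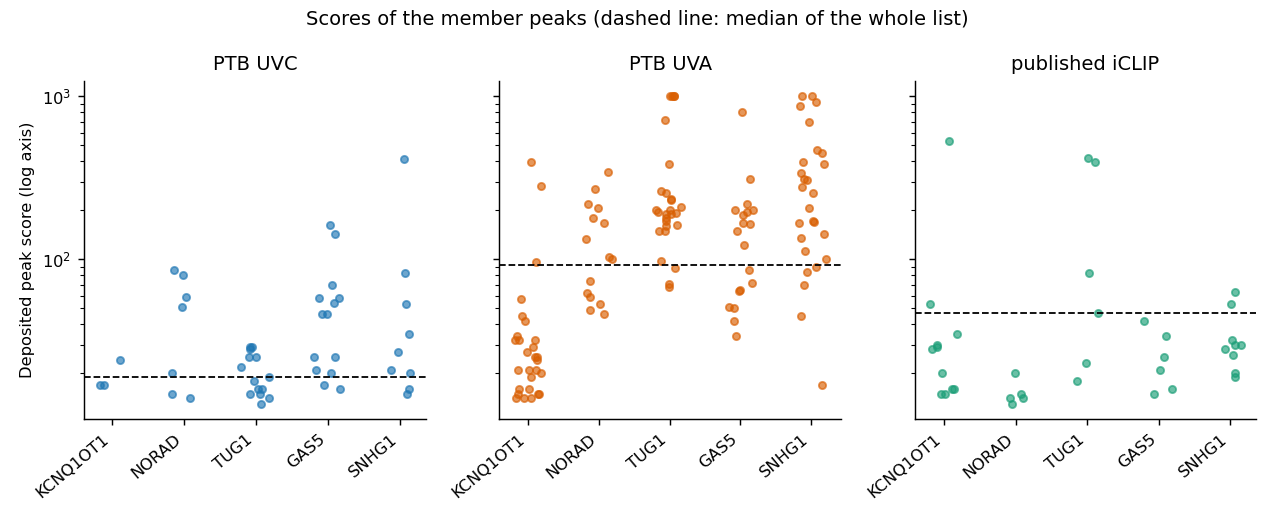
Deposited scores of the member peaks (vertical log axis) by member, 1 panel per PTB list, with horizontal scatter for visibility only and a dashed line at the median of the whole list (19 for UVC, 92 for UVA, 47 for iCLIP). TUG1 and SNHG1 lie mostly above the UVA line, and KCNQ1OT1 mostly below it apart from its region near the 5′ end.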

How the data were processed

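Per the submitters' processing notes, the aligner was Bowtie 1.1.2 and hg19 and dm3 were the builds. What dm3 was for, and which program called peaks with which filters, the sources used here do not say. The authors deposited 1 list per group, with a score and a p-value of at most 0.05 for each peak and no read counts, so depth per sample is unknown. Peaks listed with p-value 0 and score 0 (148 UVC, 538 UVA, 104 iCLIP, 39 YFP) were set to the limit of 1000. Positions are printed 1-based.

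Members and settings were chosen with earlier results of these data known. Named peaks are the highest-scoring per member and list (ties by width, then position), regions found in all 3 PTB lists, control peaks and the widest site; other shared regions were added after their values were seen. A region is a run of sites (peaks within 20 nt merged) from the PTB lists that overlap. Overlap counts matched bedtools 2.31.1 in 20 of 20 ordered pairs of lists. Among 5000 simulated peaks, 1000 of 1000 placed as exact copies of UVA peaks were recovered. Copies overlap by construction, so that step checks the code only and not partial overlaps. The fixed list of other long noncoding RNAs, likeness between genes and base content were not analysed, since they need hg19 annotation or sequence. Tables were read with pandas 2.3.3 and numpy 2.4.6 in Python 3.11.15, intervals came from scipy 1.17.1, and plots from matplotlib 3.10.9. The windows, the flanks, the whole-list shares of regions, nested peaks and stricter overlaps, and the removal of peaks on a control were added after seeing the data.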

Additional observations from a re-analysis of the deposited data

How the results depend on the processing

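No paired analysis was possible because each group has 1 list without replicates, and no replicate could be left out. Of 134 alternative values for the 25 summary results, 101 stayed within 1.5 times the count or within the interval of the share. The score thresholds moved most of the rest. With scores of at least 100, peaks in the 5 loci numbered 3 (UVC), 67 (UVA), 3 (iCLIP), 0 (no UV) and 0 (YFP), and sites 2, 43, 2, 0 and 0. The shares of the lists were then 0.130% (UVC), 0.168% (UVA), 0.0212% (iCLIP), 0% (no UV) and 0% (YFP), against 0.0397%, 0.139%, 0.0636%, 0.0788% and 0.562% of all peaks. UVA then supplied 95.7% of UVA and UVC peaks in place of 71.2%. Over the whole lists 39864 UVA and 2306 UVC peaks reached this score, so UVA supplied most of them there too. At or above each list's median score, peaks numbered 69 (UVA) and 8 (iCLIP), and sites 21 (UVC), 44 (UVA) and 7 (iCLIP). YFP peaks counted as sites were 4.

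Overlap shares with scores of at least 100 in both lists were 66.7% (UVC in UVA), 0% (UVC in iCLIP), 2.99% (UVA in UVC), 5.97% (UVA in iCLIP), 0% (iCLIP in UVC) and 100% (iCLIP in UVA), with 3 peaks in each UVC and iCLIP share. No whole-list shares were computed at this score, so these values have no background beside them. At or above the medians the shares were 3.13% (UVC in iCLIP), 14.5% (UVA in iCLIP), 12.5% (iCLIP in UVC) and 87.5% (iCLIP in UVA). The whole lists gave 5.82%, 22.5%, 10.8% and 26.7% in the same order, and the iCLIP shares of the members rest on 8 peaks. With 50% of each peak's length required, UVA in UVC was 12.1%, against 8.60% of the whole list. The remaining overlap shares stayed within their intervals at this setting. In GAS5 UVA supplied 47.8% of 23 UVA and UVC peaks at or above the medians, against 57.6% of all. UVA no longer outnumbered UVC there, though the value stayed inside the interval of the share. The cause of these changes was not tested beyond the fewer peaks each threshold leaves. Counting both strands left the peak counts of all 5 members as they were in every list. Without peaks on a control peak, UVA supplied 72.4%.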

Other observations

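The 10 kb on either side of each locus were counted on both strands. On the transcript strand these flanks held 0 peaks in all 5 lists for all 5 members. On the opposite strand the 10 kb before the 5′ end of SNHG1 held 4 UVC peaks and 1 iCLIP peak, and those before the 5′ end of TUG1 held 1 UVC peak. The 10 kb after the 3′ end of GAS5 held 1 UVA peak on the opposite strand. In the RefSeq table of GRCh38.p14 the protein-coding genes SLC3A2 and MORC2 are neighbours of SNHG1 and TUG1. Whether the peak caller searched outside annotated genes is not given in the sources used here.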
